A study of Arabidopsis with 27 samples.

Results

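Leaves of Arabidopsis thaliana capture light with photosystems I and II, membrane complexes of the chloroplast that pass electrons along the thylakoid membrane and so supply the cell with reducing power and ATP. Their reaction-centre proteins are encoded in the chloroplast, whereas the light-harvesting antenna proteins that bind chlorophyll (LHCA at photosystem I, LHCB at photosystem II) and many smaller subunits (PSA and PSB) are encoded in the nucleus. Transcripts of these nuclear genes are among the most abundant messengers of a green leaf and are known to follow light, the circadian clock and the state of the chloroplast. A total of 35 such genes, out of 32824 in the deposited table, was taken by gene identifier and followed across all libraries. They comprise 6 genes of the major photosystem II antenna, 3 of the minor photosystem II antenna, 4 of the photosystem I antenna, 12 photosystem I subunits, 6 subunits at the oxygen-evolving side of photosystem II, the photoprotection gene PSBS and 3 small photosystem II subunits.

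RNA sequencing was done on systemic rosette leaves of 3 genotypes, in 9 groups of 3 libraries each. The genotypes are labelled glr3.3glr3.6, a double mutant of glutamate receptor-like channel genes, p2k1p2k2, a double mutant of extracellular ATP receptor kinase genes, and Col-0, the wild type. In each genotype a local leaf received 300 µM βγmeATP, an ATP analogue that the sample titles call ATP (eATP below), 100 mM L-Glu or mock solution, and an untreated leaf of the same rosette was frozen 30 min later. Plants of all groups were 4 weeks old, had grown under 10 h of light and 14 h of dark at 50 µmol photons and 21 °C, and each library is a pool of 8 plants, so p-values measure the spread between pools.

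The genes named in both mutant labels were measured at higher levels in the lines named for their loss. GLR3.6 averaged 95.9 ± 22.1 FPKM in libraries labelled glr3.3glr3.6 and 1.06 ± 0.217 FPKM in Col-0 (SD, n = 9 each), and GLR3.3 averaged 7.0 ± 0.689 FPKM in glr3.3glr3.6 and 3.91 ± 0.533 FPKM in Col-0. P2K2 averaged 16.9 ± 8.76 FPKM in libraries labelled p2k1p2k2 and 0.551 ± 0.201 FPKM in Col-0, and P2K1 averaged 6.40 ± 2.57 FPKM in p2k1p2k2 and 1.60 ± 0.364 FPKM in Col-0. A transcript level does not show whether a functional protein is made, and the mutants are therefore called by their labels. Summed FPKM ran between 740955 and 822758 per library. The highest sum was that of Col-0 eATP replicate 3, which stood apart from the next library at 786962, and named differences of Col-0 eATP that it moves by over 1.5 times are given with and without it. Root markers (0 of 6 genes at a mean of 1 FPKM or more) and flower markers (0 of 5) were near absent.

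FPKM scales mapped fragments to transcript length and library total, so levels can be compared between genes. By this measure all 35 genes lay within the 100 most abundant of the table, and 30 within the top 50. The major photosystem II antenna gene LHCB1.3 (AT1G29930) was the most abundant gene of all, at a mean of 21491 FPKM and between 18598 and 27643 FPKM over the 27 libraries. Its neighbours by copy, LHCB1.2 (AT1G29910) and LHCB1.1 (AT1G29920), averaged 7333 and 5738 FPKM, and the second antenna type of photosystem II, LHCB2.2 (AT2G05070) and LHCB2.1 (AT2G05100), averaged 3064 and 2671 FPKM. LHCB3 (AT5G54270), the third type, averaged 4536 FPKM. The LHCB1 copies, and likewise the LHCB2 copies, are close in sequence, and how the authors' counting shared reads between them is not given in the sources used here, so the split between copies is uncertain.

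The minor antennas LHCB5 (AT4G10340, CP26), LHCB6 (AT1G15820, CP24) and LHCB4.1 (AT5G01530, CP29), which link the major antenna to the core, averaged 4986, 4603 and 3148 FPKM. The 4 photosystem I antenna genes followed the order LHCA4 (AT3G47470), LHCA1 (AT3G54890), LHCA3 (AT1G61520) and LHCA2 (AT3G61470) at 7580.4, 6271, 4268 and 2768 FPKM. In the complex LHCA1 pairs with LHCA4, and LHCA2 with LHCA3. Among photosystem I subunits, the membrane proteins PSAO (AT1G08380), PSAL (AT4G12800), PSAG (AT1G55670) and PSAK (AT1G30380) were highest, at 4711, 4132, 4111 and 4008 FPKM. PSAF (AT1G31330), which helps dock plastocyanin, averaged 3602 FPKM, and the stromal subunits that bind ferredoxin were PSAE1 (AT4G28750) at 3169.8, PSAD1 (AT4G02770) at 2452, PSAD2 (AT1G03130) at 1672 and PSAE2 (AT2G20260) at 1474 FPKM. PSAN (AT5G64040) and PSAH2 (AT1G52230) averaged 2269 and 2232 FPKM, and PSAH1 (AT3G16140), at 866 FPKM, was the lowest of the 35.

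At the oxygen-evolving side, where photosystem II splits water, PSBR (AT1G79040) averaged 8074 FPKM, the second highest of the 35. The extrinsic proteins that stabilise the manganese cluster were PSBO1 (AT5G66570) at 3553, PSBP1 (AT1G06680) at 3135, PSBQ2 (AT4G05180) at 2546, PSBQ1 (AT4G21280) at 1561.5 and PSBO2 (AT3G50820) at 1074 FPKM. The small subunits PSBW (AT2G30570), PSBX (AT2G06520) and PSBY (AT1G67740) averaged 3113, 2740.3 and 1019 FPKM. PSBS (AT1G44575), the sensor that switches on dissipation of excess light, averaged 889 FPKM. Neighbours in this order often did not differ beyond their spread: the SD over libraries was 5.21% of the mean for PSBO2, the steadiest, 12.9% for LHCB1.2, the most variable, and 8.42% at the median. The highest library of a gene was 1.25 to 1.66 times its lowest. Within groups, the median SD of the 35 was 0.13 on the log2 scale, against 0.22 for all genes tested and 0.20 for the 174 genes at 500 FPKM or more.

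**Figure D1:**
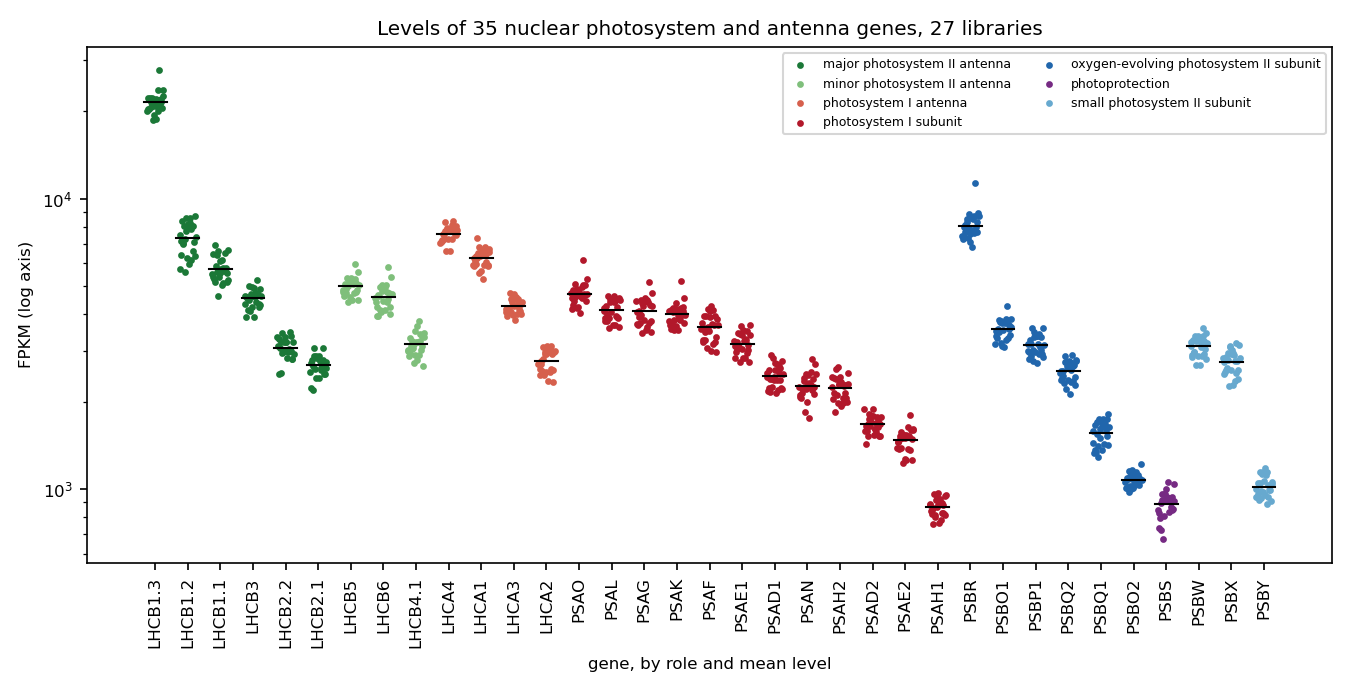
FPKM on a log axis of each of the 35 genes, ordered by role and mean level, with 1 point for each of the 27 libraries and a bar for the mean. LHCB1.3 lies highest, at a mean of 21491 FPKM, and PSAH1 lowest, at 866 FPKM.

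Neither treatment of the local leaf gave a called difference in any of the 35 genes of the systemic leaf at 30 min. Each of the 9 comparisons within a genotype was tested with limma on log2(FPKM + 1) over the 16577 genes whose mean reached 1 FPKM, with calls made where the adjusted p was below 0.05. No member was called, and 0% of all genes tested were called in any of the 9, while 1 member reached an unadjusted p under 0.05. The differences lay between -0.19 and 0.20, and every 95% interval lay within -0.51 and 0.44 on the log2 scale, or -29.7% and 35.4%. These bounds are the outermost ends of all the intervals and not a detection limit, since the standard error ran between 0.08 and 0.18 over the 35 genes. With 3 pools a group, this fit had no term for the replicate number, so its error held the spread between numbers. Of 108 same-numbered pairs of libraries from 2 groups, 102 correlated above 0.1 in their deviations from group means. Intervals from a fit with the number as a term are not given here. In a whole leaf, fewer cells of a type and less RNA per cell cannot be told apart.

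In libraries labelled glr3.3glr3.6 the genes were mostly lower after either treatment, without passing the test. The median difference of the 35 from mock was -0.10 for eATP and -0.09 for L-Glu, with 34 of 35 genes below mock in each, while the medians of all genes were 0.01 and 0.00. Both comparisons use the same 3 mock libraries. By replicate number the median was -0.02, -0.15 and -0.11 for eATP and -0.06, -0.11 and -0.08 for L-Glu.

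The photosystem I antenna gene LHCA4 had 7021.7, 7113 and 7148 FPKM after eATP in libraries labelled glr3.3glr3.6, against 7534, 8339.5 and 7763 FPKM after mock. All 3 eATP libraries lay below all 3 mock libraries, and the difference was -0.15 ± 0.09 (log2, SE, adjusted p = 1). LHCA3 had 4158, 4076 and 3957 FPKM after eATP and 4219, 4748 and 4516.5 FPKM after mock, again without overlap (-0.14 ± 0.09, adjusted p = 1). LHCB4.1 and LHCB5 completed the 4 members whose eATP libraries all lay below mock, where 2.35% of all genes tested did so. LHCB2.1 had the largest difference, -0.19 ± 0.10, at 2534, 2717 and 2232 FPKM after eATP and 2865, 3061 and 2585 FPKM after mock, and its groups overlapped. LHCA1 differed by -0.15 ± 0.11.

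After L-Glu in the same line, LHCA3, PSAD2 and PSAN lay wholly below mock, 3 of 35 where 2.58% of all genes did. PSAD2, a copy of the ferredoxin-docking subunit, had 1645, 1589 and 1520.0 FPKM after L-Glu and 1680.4, 1814 and 1744 FPKM after mock. Its L-Glu libraries were the lower ones, at -0.14 ± 0.09 (adjusted p = 1). The other members with the smallest p were LHCB2.1 at -0.16 ± 0.10, LHCA3 at -0.12 ± 0.09 and PSAH2 at -0.15 ± 0.12. Between eATP and L-Glu in this line, LHCA4 alone did not overlap, lower after eATP, where 1.65% of all genes did so. PSAH1, PSAH2, LHCA4 and LHCB4.1 had the smallest p there, at 0.10, 0.08, -0.05 and -0.07, each with an adjusted p of 1.

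In libraries labelled p2k1p2k2, PSAD2 was on the other side of its mock. It had 1785.5, 1783 and 1889.6 FPKM after L-Glu, against 1539.5, 1616 and 1607.5 FPKM after mock, with no overlap and a difference of 0.20 ± 0.09 (unadjusted p = 0.042, adjusted p = 1). After eATP it had 1655, 1704 and 1786 FPKM, also above all 3 mock libraries (0.11 ± 0.09), the only such member where 4.85% of all genes lay wholly above mock. LHCB2.2, with 3328, 3211 and 3201 FPKM after L-Glu and 2818, 3009.8 and 2975 FPKM after mock, also did not overlap (0.15 ± 0.11). LHCB2.1 (0.13 ± 0.10) and PSAH2 (0.17 ± 0.12) made 4 members of 35 wholly above mock after L-Glu, where 3.63% of all genes were. The medians of the 35 were 0.01 for eATP and 0.04 for L-Glu, with 22 and 28 genes above mock. PSAH2, PSBS and PSAK followed PSAD2 by p after eATP, at 0.13, -0.09 and 0.07. Between eATP and L-Glu the 4 smallest p were those of PSAD2, LHCB2.2, LHCB2.1 and PSAF, at -0.09, -0.09, -0.07 and -0.10.

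In Col-0 the median difference was 0.02 after eATP and -0.04 after L-Glu, with 23 and 9 genes above mock. PSAH1 averaged 835 FPKM after eATP and 907 FPKM after mock, a difference of -0.12 ± 0.10, and after L-Glu it differed by -0.11 ± 0.10. PSAO, PSAK and PSBR came next after eATP, at 0.11, 0.10 and 0.11, and all 3 rested on 1 library. PSBR had 7641, 8719 and 11366 FPKM after eATP and 7692, 8924 and 8749 FPKM after mock. Without Col-0 eATP replicate 3 the differences of PSAO, PSAK and PSBR were -0.01, -0.02 and -0.05. After L-Glu, PSBO2, PSAE1 and PSAN differed by -0.07, -0.09 and -0.09, and between eATP and L-Glu the smallest p were those of PSBR (0.19 ± 0.12), PSAN (0.16 ± 0.12), LHCB6 (0.14 ± 0.12) and LHCB3 (0.11 ± 0.10), with a lowest adjusted p of 0.893. Without Col-0 eATP replicate 3 these were 0.03, 0.08, 0.03 and 0.04, and the medians of the 35 were -0.03 for eATP against mock and 0.00 for eATP against L-Glu.

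**Figure D2:**
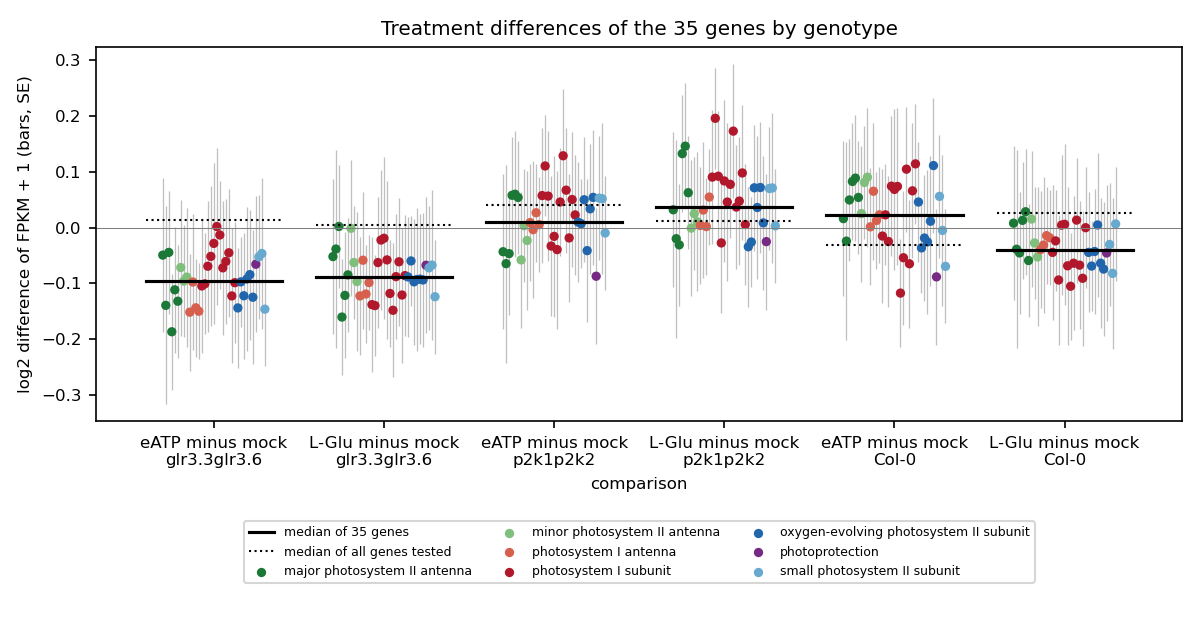
Log2 difference of FPKM + 1 from mock of each of the 35 genes (points, coloured by role, with SE) for eATP and L-Glu in libraries labelled glr3.3glr3.6, p2k1p2k2 and Col-0. Solid bars mark the median of the 35 and dotted bars that of all genes tested; the medians lie between -0.10 and 0.04 and no gene was called.

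The responses of the mutants were also set against that of Col-0, which asks whether a response depends on the genotype. None of the 4 such differences called a member or any other gene (0% of all genes tested), and 0 members reached an unadjusted p under 0.05. The median difference between the eATP response of glr3.3glr3.6 and that of Col-0 was -0.11, with LHCB2.1 (-0.27 ± 0.15), LHCA4 (-0.17 ± 0.12), PSAO (-0.21 ± 0.15) and PSBR (-0.24 ± 0.17) at the smallest p. Without Col-0 eATP replicate 3 the median was -0.07, PSAO -0.09 and PSBR -0.08. For L-Glu it was -0.04, with LHCB2.1, LHCB2.2, PSAD2 and PSBY at -0.17, -0.15, -0.12 and -0.13. For p2k1p2k2 the median was -0.02 for eATP, with PSAH1 at 0.16, PSAH2 at 0.18, PSAD2 at 0.09 and LHCB6 at -0.11. This median was 0.04 and LHCB6 was at -0.0014 without Col-0 eATP replicate 3. For L-Glu the median was 0.07, with PSAD2 at 0.22, PSAH2 at 0.24, PSAH1 at 0.18 and PSAE1 at 0.19. The L-Glu response of PSAD2 in p2k1p2k2 exceeded that in glr3.3glr3.6 by 0.34 ± 0.13 (unadjusted p = 0.0159, adjusted p = 1), a comparison added after the values were seen.

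Averaged over the 3 genotypes, eATP, L-Glu and their difference called no member and 0% of all genes, with no unadjusted p under 0.05 among the members. The genes with the smallest p were PSBY, PSBS, PSBO2 and LHCA4 for eATP against mock (-0.08, -0.08, -0.04 and -0.04) and PSBO2, PSBO1, PSAH1 and LHCA1 for L-Glu against mock (-0.05, -0.06, -0.05 and -0.05). For eATP against L-Glu they were PSBR, PSAK, PSAO and PSBY (0.07, 0.05, 0.04 and -0.04), and without Col-0 eATP replicate 3 PSBR, PSAK and PSAO differed by 0.014, 0.0075 and -0.0011.

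In the fit without a term for the replicate number, genotype gave no call among the 35 either. In mock leaves 0 members differed between glr3.3glr3.6 and Col-0, where 0.0483% of all genes were called, and 0 between p2k1p2k2 and Col-0, where 0.0362% were. No member reached an unadjusted p under 0.05 in either. The smallest p in the first comparison were those of PSBS (-0.15), LHCB2.1 (0.12), LHCA3 (0.08) and LHCB2.2 (0.10), and in the second those of PSAN (-0.21), PSBR (-0.14), PSBY (0.10) and PSAH2 (-0.11). Averaged over treatments, no member was called in that fit, and 1 reached an unadjusted p under 0.05 in each of the 3 comparisons. Of all genes 0.151% were called for glr3.3glr3.6 against Col-0, 0.109% for p2k1p2k2 against Col-0 and 0.277% for p2k1p2k2 against glr3.3glr3.6.

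PSBS had the smallest p of these. It ran between 807 and 1058 FPKM in the 9 libraries labelled p2k1p2k2 (median 939.6), against 672 to 959 FPKM in the 9 labelled glr3.3glr3.6 (median 828). The ranges overlapped, and means of 942.9 ± 69.1 FPKM in p2k1p2k2 and 818.5 ± 96.2 FPKM in glr3.3glr3.6 (SD, n = 9 each) gave a difference of 0.21 ± 0.07 (adjusted p = 0.335). With the replicate number as a term (block) in the limma fit, PSBS was called. Its adjusted p was 0.0359 with 1 block across all libraries and 0.0142 with a block within genotype, whose error excludes the spread between numbers. The share of all genes called with either block is not given here. Of 27 same-numbered pairs of these genotypes, 25 correlated above 0.1. In replicate number 3 alone, the 3 libraries labelled p2k1p2k2 held 911 to 966 FPKM and those labelled glr3.3glr3.6 672 to 733 FPKM. The difference within numbers 1, 2 and 3 was 0.05, 0.17 and 0.40, so most of it came from numbers 2 and 3. Against Col-0, PSBS in glr3.3glr3.6 differed by -0.15 ± 0.07 (adjusted p = 0.69), followed by PSAN (-0.13), PSBR (-0.12) and PSAO (-0.10). Without Col-0 eATP replicate 3, PSBR and PSAO differed by -0.07 and -0.06, and without glr3.3glr3.6 mock replicate 3 PSBS differed by -0.10. PSBY, LHCB6 and PSBQ1 followed PSBS between the mutants, at 0.10, 0.10 and 0.09.

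Between p2k1p2k2 and Col-0, PSAN, a lumenal photosystem I subunit, averaged 2178 ± 258 FPKM in p2k1p2k2 and 2419 ± 232 FPKM in Col-0 (SD, n = 9 each), a difference of -0.15 ± 0.07 (adjusted p = 0.346). PSBY averaged 1071 ± 93.7 FPKM in p2k1p2k2 and 987 ± 60.8 FPKM in Col-0, a difference of 0.12 ± 0.06 (adjusted p = 0.413). PSBR and PSAO followed, at -0.13 and -0.11, and were at -0.07 and -0.07 without Col-0 eATP replicate 3. Same-numbered libraries of these genotypes deviated together. With 1 block for the replicate number across all libraries PSAN and PSBY were not called, at adjusted p = 0.062 and 0.106 (limma). With a block within genotype, whose error excludes the spread between numbers, they were called, at adjusted p = 0.0304 and 0.0432. The latter p-values do not measure whether a difference repeats over the numbers. The share of all genes called with this block is not given here. Within numbers 1, 2 and 3 PSAN differed by -0.24, -0.16 and -0.06 and PSBY by 0.04, 0.09 and 0.22.

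**Figure D3:**
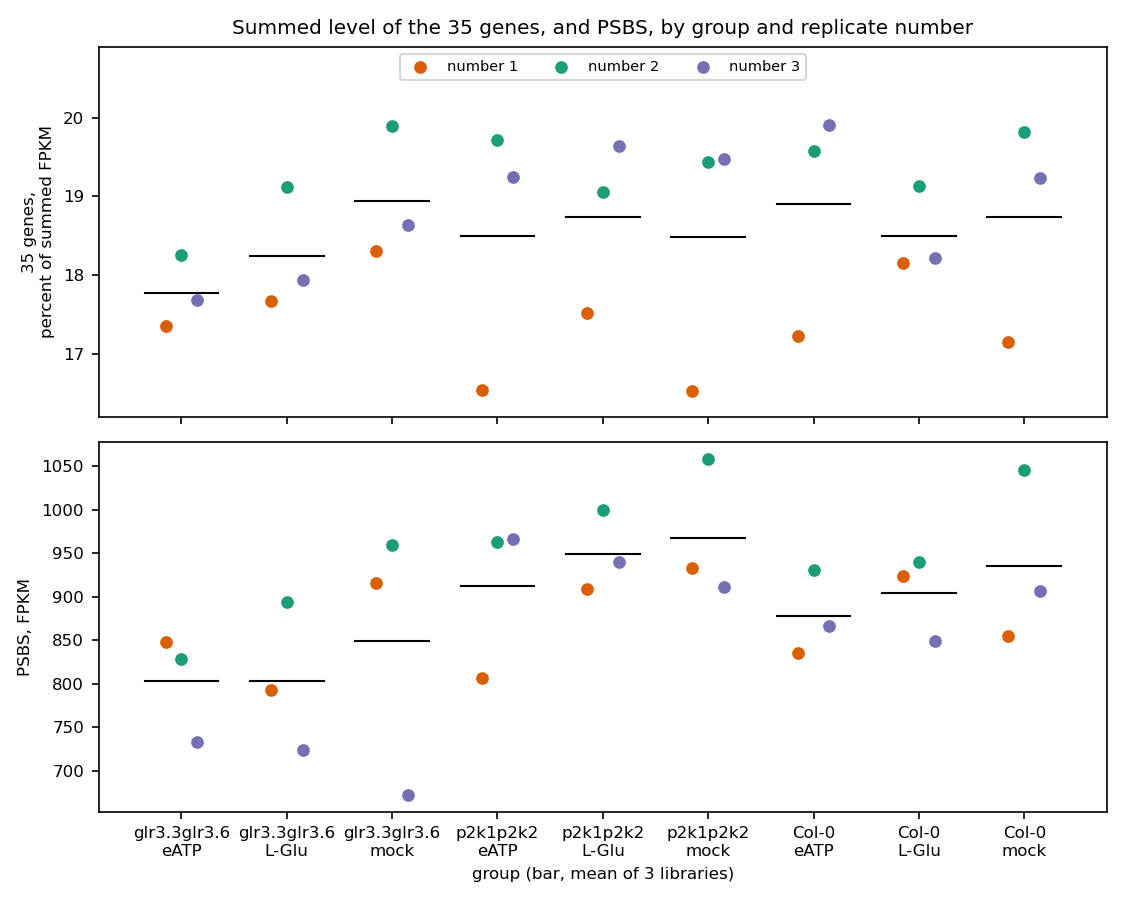
Upper panel, the 35 genes as a percent of summed FPKM in each library, and lower panel, FPKM of PSBS, by group, with a point for each library coloured by replicate number and a bar for the group mean. The axes do not start at 0. Libraries of number 1 hold 16.5 to 18.3% in the upper panel, and PSBS is lowest in number 3 of glr3.3glr3.6 mock.

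The clearest pattern among the 35 genes followed the replicate number carried by the sample titles, which recurs in each of the 9 groups; the labels do not say what it marks. The 35 genes took 16.5 to 18.3% of summed FPKM in the 9 libraries of number 1 (median 17.4%), against 18.3 to 19.9% in number 2 (median 19.4%) and 17.7 to 19.9% in number 3 (median 19.2%). In a fit with the group and the number as terms, 29 of 35 members were lower in number 1 than in numbers 2 and 3, and 0 were higher. Number 1 differed widely in the whole transcriptome, where 53.2% of all genes tested were called, 34.7% lower and 18.5% higher. The median difference of the 35 was -0.15, against -0.07 for all genes tested. For 26 of the 35 the lowest of all 27 libraries belonged to number 1, but in few of its groups. That library was p2k1p2k2 eATP for 11 genes, p2k1p2k2 mock for 11, Col-0 mock for 3 and Col-0 eATP for 1.

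Every role group but PSBS held called genes. These were 3 of 6 in the major photosystem II antenna, 3 of 3 in the minor antenna, 4 of 4 in the photosystem I antenna, 11 of 12 photosystem I subunits, 5 of 6 oxygen-evolving subunits and 3 of 3 small photosystem II subunits. LHCB1.2 was lowest relative to the other numbers. Its 9 libraries of number 1 had 5595 to 6978 FPKM (median 6259), those of number 2 7503 to 8751 FPKM (median 8165.5) and those of number 3 7053 to 8276 FPKM (median 7404). No library of number 1 reached any of the others, and the difference was -0.34 ± 0.04 (adjusted p = 1.08e-06). PSAE2 was the other member with no overlap, at 1233 to 1388 FPKM in number 1 (median 1369), 1454 to 1606 FPKM in number 2 (median 1528) and 1454 to 1797 FPKM in number 3 (median 1541). Such separation was seen in 1.14% of all genes tested in this direction.

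PSAF had 2967 to 3565 FPKM in number 1, 3739 to 4279 FPKM in number 2 and 3261 to 3912 FPKM in number 3, at -0.24 ± 0.04. Its number 1 and number 3 ranges overlapped. PSAE2 differed by -0.23 ± 0.03, PSAG by -0.21 ± 0.05 and PSBX by -0.21 ± 0.05. The 6 members that were not called were LHCB2.1 (-0.03), LHCB2.2 (0.05), LHCB3 (-0.08, adjusted p = 0.138), PSAD2 (-0.01), PSBO2 (-0.03) and PSBS (-0.04), all limma tests with Benjamini-Hochberg adjustment. Other scalings of the libraries changed this count and some of these directions. Median-of-ratios scaling, which put the median of all genes at -0.01, left 7 members lower, and quantile normalization gave 14 lower and 2 higher, LHCB2.1 at 0.10 and LHCB2.2 at 0.15, with PSBO2 and PSBS among those lower. LHCB1.2, PSAE2, PSAF and PSBO1 were called lower under all 4 scalings tried. The shares of all genes called under the other scalings are not given here, so these counts cannot be set against a background.

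**Figure D4:**
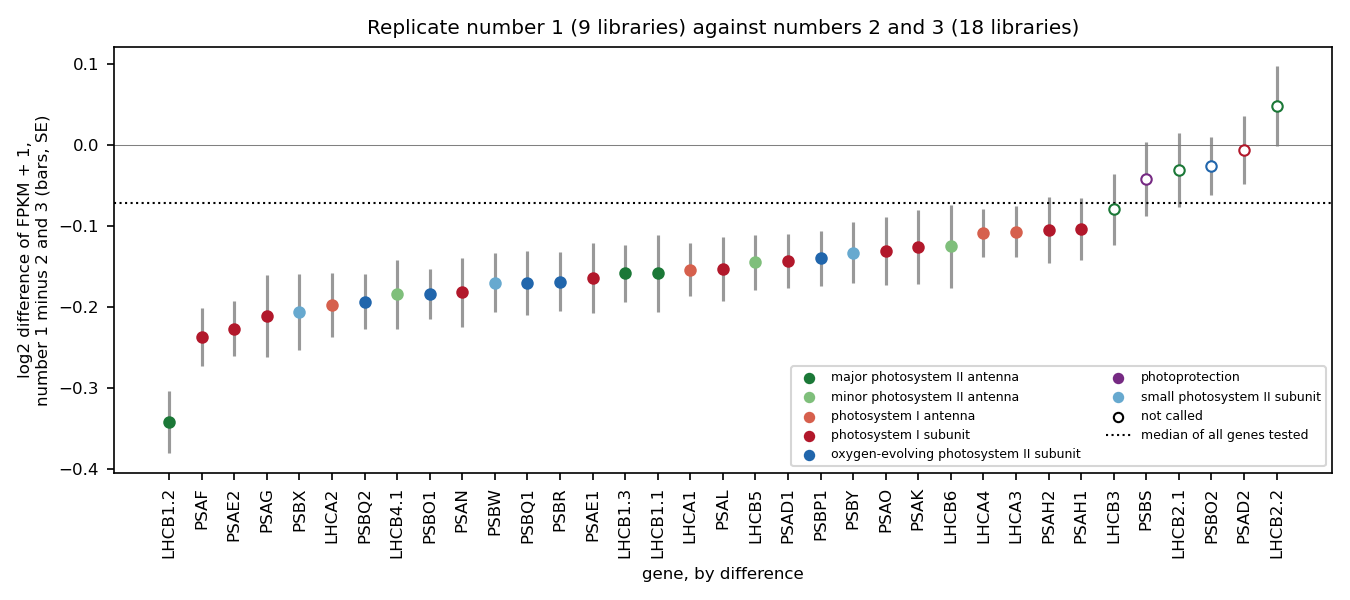
Log2 difference of FPKM + 1 between replicate number 1 and numbers 2 and 3 for the 35 genes, ordered by size, with SE and coloured by role; open points were not called and the dotted line is the median of all genes tested (-0.07). LHCB1.2 has the largest difference, -0.34, and LHCB2.2 is the only gene above 0.

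The pattern was not of the same size in every group. The median difference of the 35 was -0.27, -0.17 and -0.25 for eATP, L-Glu and mock in p2k1p2k2, -0.24, -0.06 and -0.23 in Col-0, and 0.04, -0.07 and -0.09 in glr3.3glr3.6. In the last genotype's eATP group 10 of 35 genes were lower in number 1, against 35 of 35 in eATP and mock of p2k1p2k2. With a number term for each genotype in 1 fit, added after the values were seen, 30 members were lower in p2k1p2k2 (background 16.1%), 18 in Col-0 (10.6%) and 1, LHCB1.2, in glr3.3glr3.6 (17.9%). The difference between p2k1p2k2 and glr3.3glr3.6 in this respect had a median of -0.20 and 26 members at an unadjusted p under 0.05. The share of all genes at that level is not given here, and the 26 come from the same libraries, so they are not replicates of each other. No member passed adjustment over all genes (lowest adjusted p = 0.329, PSAN), and 0% of all genes were called. Against Col-0 the median was 0.14 for glr3.3glr3.6, with 6 members at an unadjusted p under 0.05, and -0.05 for p2k1p2k2, with 0, and no member was called in either. Of all genes 0% were called for glr3.3glr3.6, and 0.235% higher and 0.0121% lower for p2k1p2k2. LHCB1.2, LHCB1.3, LHCA1, PSAE2, PSBO1, PSBQ1, PSBR and PSBY were lower in number 1 in 9 of 9 groups.

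Numbers 2 and 3 differed less. A total of 8 members was higher in number 2 and 1 was lower, where 12.8% of all genes were called higher and 13.6% lower, and the median of the 35 was 0.04, against -0.00 for all genes. PSBS ran between 828 and 1058 FPKM in number 2 (median 959) and 672 and 966 FPKM in number 3 (median 866), at 0.19 ± 0.05 (adjusted p = 0.00983). PSAD1 had 2519 to 2885 FPKM in number 2 and 2163 to 2575 FPKM in number 3, at 0.19 ± 0.04 (adjusted p = 0.00143). PSAH2, LHCB1.1 and PSAF differed by 0.18, 0.17 and 0.17, and PSBQ1, PSBP1 and LHCB1.2 by 0.16, 0.15 and 0.12. PSBR was the member lower in number 2, with means of 8015 and 8769 FPKM in numbers 2 and 3 (-0.13 ± 0.04, adjusted p = 0.0363). The calls of LHCB1.1 and PSBR were lost when 1 library was left out in 7 and 11 of the 18 cases, and no member was called within a single genotype.

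Copies of one subunit did not share the pattern equally. Ratios of copies within a library do not depend on how libraries are scaled to each other, and 9 pairs were compared by exact two-sided permutation of the numbers within groups, with adjustment over 18 tests. This test was added after the values were seen. PSBO1 over PSBO2, the forms of the manganese-stabilising protein, had a ratio of 2.97 to 3.22 in number 1 (median 3.03), 3.17 to 3.55 in number 2 (median 3.39) and 3.22 to 3.82 in number 3 (median 3.37). It was lower in number 1 in 9 of 9 groups, by -0.16 on the log2 scale (exact permutation p = 5.1e-05, the smallest that 19683 arrangements can give, adjusted p = 0.000914). LHCB1.2 over LHCB1.1 was likewise lower in 9 of 9 groups, at means of 1.17 in number 1 and 1.31 and 1.35 in numbers 2 and 3 (-0.18, adjusted exact permutation p = 0.000914).

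PSAD1 over PSAD2 set number 2 apart. Its ratio was 1.29 to 1.45 in number 1, 1.53 to 1.67 in number 2 and 1.36 to 1.51 in number 3, and every number 2 library lay above all 18 others. The differences were -0.14 for number 1 against the others and 0.18 for number 2 against number 3 (adjusted exact permutation p = 0.0136 and 0.010). LHCB1.3 over LHCB1.2 was higher in number 1 in 9 of 9 groups (0.18, adjusted exact permutation p = 0.00892), and LHCB1.3 over LHCB1.1 was lower in number 2 than in number 3 in 9 of 9 groups, at means of 3.46 and 4.08 (-0.24). LHCB2.2 over LHCB2.1 was higher in number 1 in 7 of 9 groups (0.08, adjusted exact permutation p = 0.00549). PSAE1 over PSAE2 was 1.95 to 2.39 over all libraries and higher in number 1 in 7 of 9 groups (0.06, adjusted exact permutation p = 0.0463). PSAH2 over PSAH1 was 2.22 to 2.85 and higher in number 2 than in number 3 in 8 of 9 groups (0.13, adjusted exact permutation p = 0.0391). PSBQ2 over PSBQ1 did not pass in either comparison. Reads shared between close copies could move such ratios, above all within LHCB1 and LHCB2.

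**Figure D5:**
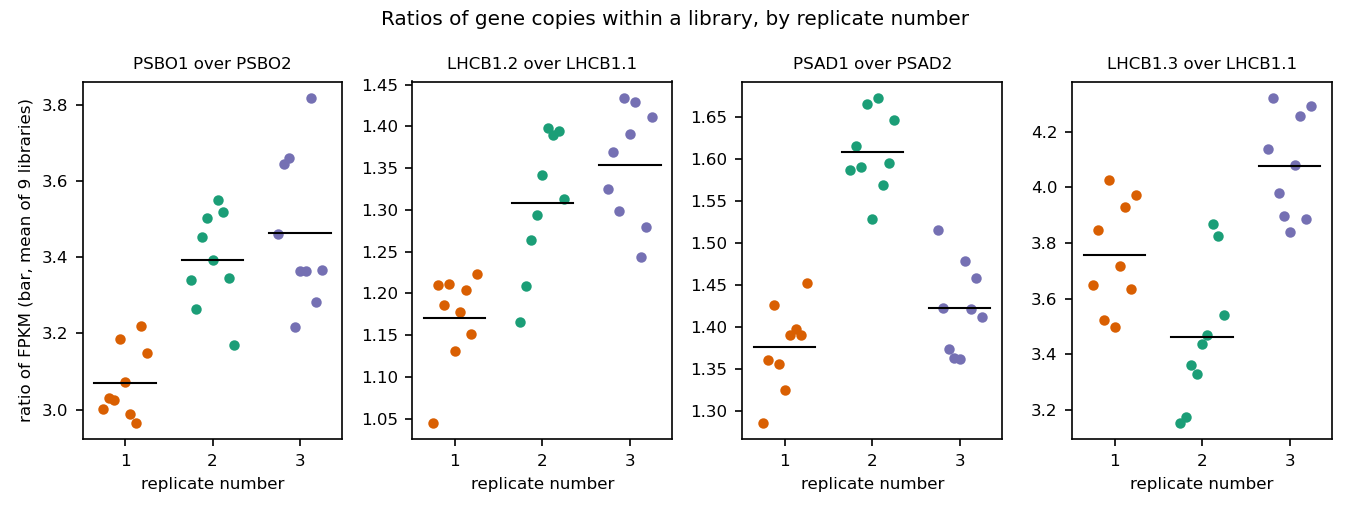
Ratio of FPKM of 2 copies within a library, for PSBO1 over PSBO2, LHCB1.2 over LHCB1.1, PSAD1 over PSAD2 and LHCB1.3 over LHCB1.1, by replicate number, with a point for each of 9 libraries and a bar for the mean. The axes do not start at 0. PSBO1 over PSBO2 averages 3.07 in number 1 and 3.39 and 3.46 in numbers 2 and 3.

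Other genes of light use were read from lists that do not hold the 35, and their counts stand against 34.7% lower and 18.5% higher among all genes tested. Among 13 genes of electron transport and ATP synthase, 7 were lower and 2 higher in number 1 than in numbers 2 and 3 (median -0.12). FD2, the main leaf ferredoxin, averaged 1368 ± 122 FPKM in number 1 and 1815 ± 159 FPKM in numbers 2 and 3 (-0.41), and ATPG, ATPC1 and AT2G26500 differed by -0.20, -0.14 and -0.24. Of 14 chlorophyll synthesis genes, 9 were lower and 1 higher (median -0.15), led by PORB, which reduces protochlorophyllide in the light, at 503 FPKM in number 1 and 711 FPKM in numbers 2 and 3 (-0.51), DVR (-0.44), CHLD (-0.21) and PORA (-0.74). Of 16 regulators of these genes, 8 were lower and 3 higher (median -0.14). PIF3, a phytochrome partner, differed by -0.83, GNC, a GATA factor, by -1.06, BBX22 by -0.57 and the plastid sigma factor SIG5 by 0.62. The morning clock genes CCA1 and LHY were higher in number 1, by 0.52 and 0.51.

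The remaining lists were mixed. Among 9 tested genes of the wider antenna family and the early light-induced proteins, 3 were lower and 2 higher (LHCB4.2 -0.17, LHCB1.5 -0.17, ELIP2 -0.50 and LHCB7 0.16). Of 8 genes for inserting and adjusting antenna proteins, 2 were lower and 2 higher (cpSRP54 -0.19, ALB3 -0.12, the state-transition kinase STN7 0.10 and the zeaxanthin epoxidase ZEP 0.28). Of 7 carbon fixation genes, 1 was lower (RBCS1A, -0.13) and 1 higher (GAPA, 0.23). The plastid-encoded photosystem genes held 12 tested of 20, with 1 higher and 0 lower. Plastid values are of limited use, since the chloroplast genome took 0.130 to 0.453% of summed FPKM. In the 21 comparisons of treatment, genotype and response, 0 of the 127 genes of all 13 lists were called (lowest adjusted p = 0.0555, GLK1 in p2k1p2k2 against Col-0, at 50.1 and 37.4 FPKM). List genes with a mean below 1 FPKM, among them all root and flower markers, were not tested and could not be called. Each of these comparisons called 0 to 0.277% of all genes tested.

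Some markers of other cell types and of leaf age were also called between the numbers, where 34.7% of all genes were lower and 18.5% higher, and their part in the pattern was not tested. Of 7 guard cell markers 4 were lower and 0 higher in number 1 (median -0.30; MYB60 -0.51, KAT1 -0.67, HT1 -0.39 and GORK -0.30), with a summed level of 1096 to 2406 FPKM in number 1, 1414 to 1963 in number 2 and 837 to 1287 in number 3. Most of that sum was TGG1, at a mean of 1386 FPKM. Of 7 tested vascular markers 5 were lower and 0 higher (XCP2 -0.90, ATHB8 -0.34, XCP1 -0.67 and SUC2 -0.17 among them), at a summed 126 to 157 FPKM in number 1, 160 to 189 in number 2 and 140 to 180 in number 3. Of 6 tested epidermal markers 4 were lower and 0 higher (PDF1 -1.79, PDF2 -0.32, ATML1 -0.33 and FDH -0.16), at a summed 681 to 1015 FPKM in number 1, 676 to 923 in number 2 and 795 to 1331 in number 3. Of 5 tested senescence markers 3 were higher and 0 lower (SAG13 2.09, SGR1 0.53 and SEN1 0.27), at a summed 463 to 703 FPKM in number 1, 284 to 543 in number 2 and 500 to 831 in number 3, and SAG12, the marker of late senescence, was listed at 0 in all 27 libraries.

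Between numbers 2 and 3 the lists were again mixed, against 12.8% higher and 13.6% lower among all genes tested. Of the electron transport genes 5 were higher and 2 lower in number 2 (AT2G26500 -0.30, LFNR1 0.29, ATPD 0.28 and PETC 0.17), and of the chlorophyll synthesis genes 4 were higher and 1 lower (CHLG 0.19, CHLI1 0.32, DVR 0.36 and CHLI2 0.27). The regulators had 1 higher and 6 lower (CCA1 -0.56, GLK2 -0.48, SIG2 0.29 and PIF1 -0.28). The wider antenna family had 2 higher and 3 lower (ELIP2 -2.14, LHCB7 -0.41, LHCA5 0.22 and LHCB1.4 -0.31), and antenna insertion had 2 and 2 (cpSRP54 0.33, cpSRP43 -0.27, ZEP -0.19 and ALB3 0.11). Carbon fixation had 2 higher and 0 lower (RBCS1A 0.26 and HCEF1 0.12), and the plastid-encoded genes had 0 and 2. Guard cell markers had 4 higher and 0 lower (TGG1 0.62 and KAT1 0.54 first), epidermal markers 1 and 2 (PDF1 1.57 and CER6 -0.32), vascular markers 4 and 2 (SWEET12 -0.47 and XCP2 0.63) and senescence markers 0 and 3 (SEN1 -0.81, NAC092 -1.40 and SGR1 -0.19).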

How the data were processed

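RNA from 27 pools was sequenced. The authors deposited FPKM per gene; per the submitters' processing notes the tools were HISAT2 2.2.1, Cufflinks 2.2.1, Cuffdiff 2.2.1, SAMtools 1.19, Trim Galore 0.6.7 and FastQC 0.11.9, with build TAIR10, in an order and with settings not given in the sources used here. Absolute depth is unknown; steps of low FPKM gave a ratio of 1.61 between the deepest and the shallowest library. Groups and replicate numbers come from the sample labels.

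FPKM were analysed as log2(FPKM + 1), which understates changes of low genes, for the 16577 genes whose mean reached 1 FPKM; all 35 members passed. One limma 3.58.1 model (R 4.3.3, lmFit, contrasts.fit, eBayes with trend) with a mean per group left 18 residual degrees of freedom, and the fit with the number as a term 16. Tests were two-sided, with Benjamini-Hochberg adjustment over all genes tested in each of 23 comparisons and calls at an adjusted p under 0.05. The scripts were tested on simulated data. A total of 35 of 35 member identifiers matched a RefSeq gene table of another build, so no coordinates or sequences are given.

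Members, lists and comparisons were chosen with earlier results of these data known. Every called member was counted and the 5 largest in each direction named; with fewer than 4 called, the 4 smallest p were named, and for each list up to 4. Same-numbered libraries of p2k1p2k2 and Col-0 correlated in their deviations from group means in 27 of 27 pairs above 0.1 (lowest 0.129), so blocked values stand beside that comparison. For p2k1p2k2 against glr3.3glr3.6, where 25 of 27 pairs did so, they are given for PSBS. In eATP against L-Glu over 3 genotypes 27 of 27 pairs also did so, as did every pair in most comparisons of single groups. Blocked values of those comparisons are not given here, and their unblocked error holds the spread between numbers. Alternatives were another pseudocount, filter and scaling, library weights, replicate blocks, subsets of libraries and leaving out each library.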

Additional observations from a re-analysis of the deposited data

Results flagged for a closer look

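In each set of 9 libraries of one replicate number, the highest or lowest value was compared with its nearest neighbour by Dixon's criterion (gap over range above the 95% critical value). It marked 8 of 105 sets, where chance marks about 1 in 20, and 6 of the 8 were in Col-0 eATP replicate 3, the library with the highest summed FPKM. That library had 27643 FPKM of LHCB1.3 (next highest 23635), 6492 of LHCB1.1 (next 5793), 11366 of PSBR (next 8833), 6163 of PSAO (next 4954), 5212 of PSAK (next 4359) and 4264 of PSBO1 (next 3839). The other two were PSAG in glr3.3glr3.6 eATP replicate 1, at 4444 FPKM (next 3816), and PSBO2 in Col-0 mock replicate 2, at 1219 FPKM (next 1110.0). The higher values of Col-0 eATP replicate 3 stand in genes of both photosystems, and their cause was not tested.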

How the results depend on the processing

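Over 141 results and 3201 alternative values, 508 values of the counts of called members stayed within 1.5 times and 10 moved. For number 1 against numbers 2 and 3 (29 members), quantile normalization gave 16 and median-of-ratios scaling 7, the libraries of Col-0 alone 0 and of glr3.3glr3.6 alone 0, while those of p2k1p2k2 alone gave 28; leaving out each library gave 25 to 30. Quantile normalization sets the value at each abundance rank equal between libraries by construction, so a gene that keeps its rank shows no difference. For number 2 against number 3 (9 members), each genotype alone gave 0 and leaving out each library 6 to 9. The share of all genes called under each of these alternatives is not given here. Among named members 2579 values were alike, 31 moved, 52 fell short of the threshold, 4 passed it and 17 changed sign, none of the last in a called gene. The cause was not tested.

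With a replicate block within genotype, whose error excludes the spread between numbers, p2k1p2k2 against Col-0 called 2 members, PSAN (-0.15) and PSBY (0.12). For p2k1p2k2 against glr3.3glr3.6, where 25 of 27 same-numbered pairs correlated above 0.1, PSBS (0.21) was the 1 member called with the block across all libraries (adjusted p = 0.0359) and the 1 called with the block within genotype (adjusted p = 0.0142, limma). The block changed no other count of called members by over 1.5 times. How many of all genes were called with a block is not given here. Every same-numbered pair correlated above 0.1 in 8 of 11 pairs of groups, and 102 of 108 pairs did so in all.

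Leaving out each library changed signs as follows, given as the lowest and highest values. In eATP against mock in Col-0, PSAO ran between -0.0081 and 0.21, PSAK between -0.021 and 0.20 and PSBR between -0.048 and 0.24, and in eATP against L-Glu over genotypes PSAO ran between -0.0011 and 0.073, each lowest without Col-0 eATP replicate 3. In eATP against L-Glu, PSAH2 in glr3.3glr3.6 ran between -0.025 (without L-Glu replicate 3) and 0.17, and in p2k1p2k2 LHCB2.1 ran between -0.12 and 0.0043 and PSAF between -0.21 and 0.013, both highest without eATP replicate 1. PSBS in glr3.3glr3.6 mock against Col-0 mock ran between -0.25 and 0.0074 (without glr3.3glr3.6 mock replicate 3).

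Quantile normalization changed the sign of LHCB3 (-0.011, eATP against L-Glu in Col-0), LHCA1 (0.021, eATP against mock in glr3.3glr3.6, and 0.037, L-Glu against mock over genotypes), PSAH2 (-0.079, eATP against mock in p2k1p2k2, 0.061, p2k1p2k2 mock against Col-0 mock, and -0.013, L-Glu response of p2k1p2k2 minus that of Col-0), PSBR (0.014, glr3.3glr3.6 against Col-0) and PSAK (-0.017, eATP against L-Glu over genotypes). Median-of-ratios scaling changed that of PSAD2 (-0.0017, eATP response of p2k1p2k2 minus that of Col-0). FPKM without counts limit what can be said of the precision of single libraries.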
